A study of Drosophila melanogaster and Drosophila persimilis and Drosophila pseudoobscura with 5 samples.

Results

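The odorant-binding protein genes Obp8a, Obp19c, Obp44a, Obp49a, Obp99a and Obp99b were followed across the Johnston's organ of 5 Drosophila species. They were taken by name from the authors' table of 8180 genes listed under D. melanogaster symbols, in which all 6 had a row. Johnston's organ is the fly's ear, a chordotonal organ housed in the second antennal segment. Total RNA was sequenced from adult D. pseudoobscura and D. persimilis, which belong to the obscura species group, and from adult D. melanogaster, D. simulans and D. yakuba, which belong to the melanogaster group, all raised at 25 degrees Celsius on standard food. With 1 library per species there is no spread between replicates and no test, and every "higher" or "lower" refers to these libraries. The labels name neither the strain nor the sex of the flies, nor how many were pooled. The authors' column names add a code to each species, with the word mix for D. melanogaster only, and its meaning was not established. Fewer cells of a type cannot be told apart from less RNA per cell.

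Odorant-binding proteins are small secreted proteins with conserved cysteines, made by support cells and released into the fluid around sensory dendrites. In the antenna they are best known from the olfactory sensilla of the third segment, next to the organ sampled here, and several members act outside smell. In D. melanogaster, Obp49a is secreted in taste sensilla, where it is needed for bitter compounds to suppress the response to sugar. Obp99a is among the binding proteins abundant in the olfactory segment, Obp99b is known as tsx, a gene of the head fat body that is enriched in males, Obp44a is made by glia and binds fatty acids, and Obp8a is found among seminal fluid proteins.

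In D. melanogaster the 6 genes lie apart in the genome, as their cytological names say. In the BDGP6 assembly Obp8a is at X:9214876-9215699 and Obp19c at X:20417921-20418964, in a row of 4 binding protein genes with 108 bases to Obp19b on one side and 648 bases to Obp19d on the other. Obp44a is at 2R:8134170-8135315 and Obp49a at 2R:12690059-12690955. Obp99a (3R:29671657-29672334) and Obp99b (3R:29716254-29716896) stand 43919 bases apart on opposite strands, with Obp99c and Obp99d between them. All 6 are short, with 594 to 1076 exonic bases. Exons of Obp44a share 205 bases with Pabp2 on the other strand, a gene with 757 D. melanogaster reads, and without strand information reads from these bases cannot be told apart. The other 5 genes overlap no annotated gene. The deposited D. melanogaster value of Obp44a was the one a gene model of 644 bases gives, shorter than the 1076 exonic bases of the present one.

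The D. melanogaster counts behind the values were 2593 reads for Obp8a (95% exact Poisson interval 2494 to 2695), 99 for Obp19c (80.5 to 120.5), 288 for Obp44a (256 to 323), 188 for Obp49a (162 to 217), 566 for Obp99a (520.3 to 615) and 3273 for Obp99b (3162 to 3387). These intervals cover counting error only, and reads behind the values of the other species were not analysed here. All other levels below are the authors' signal, read as reads divided by gene length with the same upper quartile in every library. This reading as a level per length was checked against reads in D. melanogaster only, and comparisons between genes rest on it. In the other species it was not checked. Differences between libraries went in part with exonic length, as given below.

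The libraries held between 7580214 reads on genes (D. simulans) and 22391819 (D. melanogaster). Of 14 Johnston's organ and chordotonal markers 8 were in the table, led by the axonemal dynein gene Dnai2 with signals from 11.7 in D. simulans to 78.6 in D. melanogaster. The mechanotransduction channel nompC lay between 0.932 and 2.91, and the proneural gene ato was listed at 0 in all 5 libraries. Of 16 markers of the olfactory segment 12 were in the table, and the antennal dehydrogenase Antdh among them reached 22592 in D. persimilis and 2946 in D. simulans. Markers of the olfactory segment were thus detected in every library. The labels do not say by which rule a gene of another species was given its D. melanogaster symbol. A 0 in those species may therefore mean that no counterpart was assigned, and a wrongly assigned relative would look like a change of level.

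The 6 genes varied more between libraries than most genes did, and were highest in different species. Of the 60 comparisons of a gene between a pair of libraries, 39 were at least 4-fold apart on the log2(signal + 1) scale, whose pseudocount of 1 understates the differences of low genes. Among all 5089 genes with a mean signal of at least 5, a filter that all 6 genes passed, 21.9% of such comparisons were that far apart. The median number of pairs of libraries that far apart, of 10 per gene, was 6.5 for the 6 genes and 2 for all compared genes. The range from the lowest to the highest library had a median of 5.53 on the log2 scale for the 6 genes and 2.39 for all compared genes. It was smallest for Obp19c, at 4.01, where 81.1% of compared genes had a smaller range, and widest for Obp99a, at 11.83, where 99.9% did. Obp19c and Obp99a owe part of that range to values of 0, which made up 3 of the 30 values. The pairs of a gene share libraries, so a single library that differs adds several of them. The 6 genes were also chosen with earlier results of these data known.

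**Figure D1:**
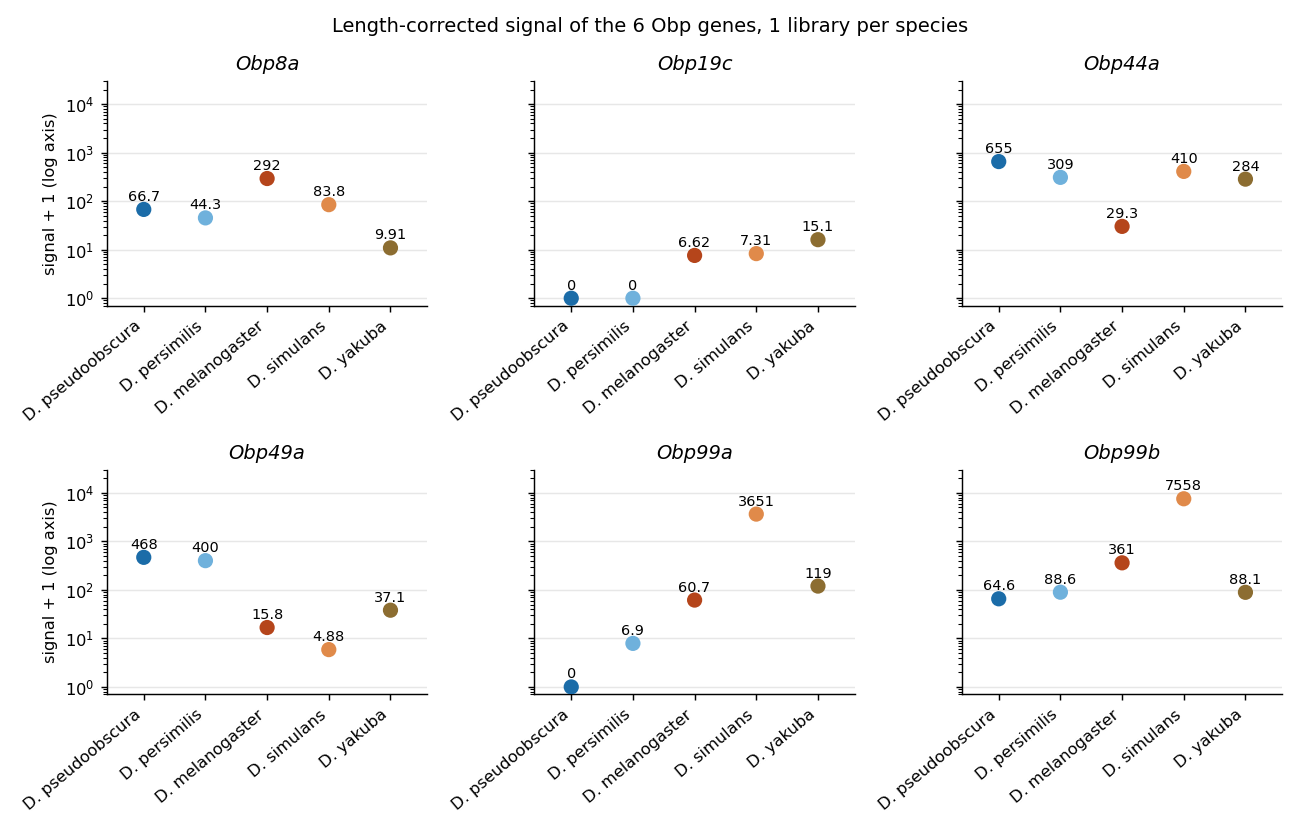
Authors' signal, read as length-corrected, of each gene in the library of each species, with 1 added so that values of 0 can be drawn on the log axis. The figure over each point is the signal, and each point is 1 library. Obp49a is high in the 2 obscura group libraries, Obp99a and Obp99b in D. simulans, and Obp44a is low in D. melanogaster.

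Between the species groups, Obp49a was the gene that was higher in the obscura group. Its signal was 468 in D. pseudoobscura and 399.9 in D. persimilis, against 15.8 in D. melanogaster, 4.88 in D. simulans and 37.1 in D. yakuba. The 2 obscura group libraries lay within 1.17-fold of each other, while the lower of them was 10.8-fold above D. yakuba, the highest of the others. Within the melanogaster group the level was less even, and D. yakuba stood 7.61-fold above D. simulans. Genes of the olfactory segment moved with this pattern in part. Of 11 compared markers, 3 were higher in the obscura group by the same rule (4.68% of all compared genes) and none lower (5.86%). The summed signal of the 12 genes was 21504 (D. pseudoobscura) and 23436 (D. persimilis) in the obscura group, against 6193 (D. melanogaster), 3143 (D. simulans) and 10644 (D. yakuba). Antdh made up most of these sums. The olfactory co-receptor Orco was highest in D. yakuba, at 678, with 376 in D. pseudoobscura, 348 in D. persimilis, 88.0 in D. melanogaster and 77.3 in D. simulans. Gustatory markers gave little, with Gr32a, Gr33a and Poxn listed at 0 in all 5 libraries. The part of olfactory tissue in the Obp49a difference was not tested.

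Obp19c, a low gene, was detected in the melanogaster group and listed at 0 in D. pseudoobscura and D. persimilis. Its signal was 6.62 in D. melanogaster, 7.31 in D. simulans and 15.1 in D. yakuba. D. melanogaster and D. simulans differed by 1.10-fold, and D. yakuba was 2.07-fold above D. simulans. With 99 reads in D. melanogaster, Obp19c was the most thinly counted of the 6 genes, and no fold is given against the libraries at 0. Without the D. yakuba library its mean fell under the filter.

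Obp99a was also lower in the obscura group, where it was listed at 0 in D. pseudoobscura and had a signal of 6.90 in D. persimilis. The others had 60.7 in D. melanogaster, 3651 in D. simulans and 119 in D. yakuba. D. melanogaster, the lowest of the melanogaster group, was 8.80-fold above D. persimilis.

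Counted over the 6 genes, 1 (Obp49a) was higher in the obscura group by a gap of at least 2-fold between the species groups, a call that 4.68% of the 5089 compared genes had, and 9.15% of the 1300 among them with up to 1200 exonic bases, a length all 6 genes are under. Obp19c and Obp99a, 2 of the 6, were lower by the mirror rule, which called 5.86% of the compared genes and 3.92% of the short ones. Obp19c, at 0 in both obscura group libraries with a mean of 5.81, passed the filter of 5 only through the melanogaster group. Its call is thus not independent of the filter, and at a mean of at least 20 it was not compared. In the other 3 genes, Obp8a, Obp44a and Obp99b, the species groups overlapped. The mean log2 difference, obscura minus melanogaster group, was 4.80 for Obp49a, 1.56 for Obp44a, -0.23 for Obp8a, -3.03 for Obp99b, -3.33 for Obp19c and -6.74 for Obp99a, with a median of -1.63 over the 6 genes and -0.06 over all compared genes. The differences of Obp19c and Obp99a rest on values of 0 and depend on the pseudocount. Single libraries carry others. Without D. simulans the difference of Obp99b was -1.23, that of Obp99a -4.94 and the median over the 6 genes -0.63. Without D. melanogaster that of Obp44a was 0.40 and that of Obp8a 0.86, against -1.51 for Obp8a without D. yakuba. Without D. pseudoobscura that of Obp44a was 1.02. The difference of Obp49a lay between 4.10 and 5.45 whichever library was left out.

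**Figure D2:**
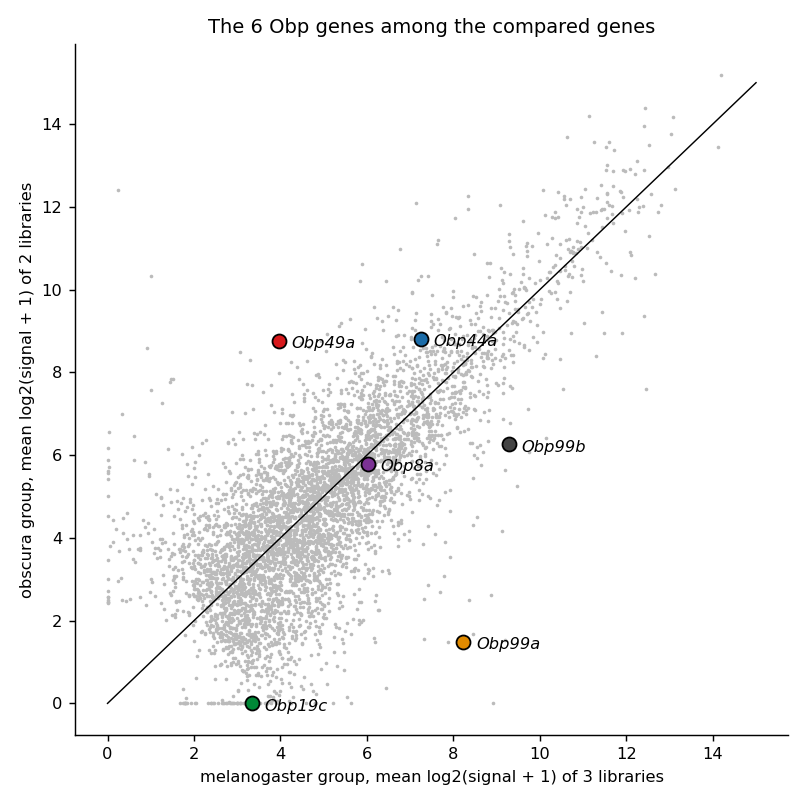
Mean log2(signal + 1) of the 2 obscura group libraries (vertical axis) against that of the 3 melanogaster group libraries (horizontal axis). Each grey point is 1 of the 5089 compared genes, the coloured points are the 6 Obp genes and the line marks equal levels. Obp49a and Obp44a lie above the line, Obp99a, Obp19c and Obp99b below it, and Obp8a near it. Other compared genes lie as far from the line as Obp49a, Obp99b and Obp99a.

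D. simulans stood apart in Obp99a and Obp99b. Obp99a had 3651 in D. simulans, 30.7-fold above D. yakuba, the next library, and 60.1-fold above D. melanogaster. Obp99b had 7558 in D. simulans, 21.0-fold above the 360.5 of D. melanogaster, which was in turn 4.07-fold above the 88.6 of D. persimilis. D. persimilis, D. yakuba (88.1) and D. pseudoobscura (64.6) had levels of Obp99b within 1.37-fold of each other. These 3 libraries are thus not set in an order, and the species groups overlapped in this gene. Without the D. yakuba library Obp99b was lower in the obscura group, by a gap of -2.01 on the log2 scale. Without the D. simulans library, Obp99b was highest in D. melanogaster, at 2.01 on the log2 scale above the next library, and Obp99a had no library set apart at the top (0.96). Obp99c, which lies between these genes on 3R, was also highest in D. simulans, at 7977, but close to 7524 in D. persimilis, and Obp99d was listed at 0 in 3 libraries and at 16.6 in D. melanogaster and 5.02 in D. simulans.

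Signs of other tissue were high in the same D. simulans library. Of 11 compared eye and phototransduction genes, a list added after the data were seen, 10 had D. simulans set apart as the highest library (5.6% of all compared genes). The summed signal of the 12 listed genes in the table was 8067 in D. simulans, against 38.1 (D. pseudoobscura) to 340.7 (D. yakuba) in the other 4. Head fat body markers summed to 47937 in D. simulans, against 19019 in D. melanogaster and 3769 (D. persimilis) to 7160 (D. yakuba) in the remaining 3. Among them fit, a gene of the female head fat body, was at 24996 in D. simulans and at most 2151 elsewhere, and the yolk protein gene Yp2 was at 12561 in D. simulans and 5297 in D. melanogaster. With the yolk protein gene Yp1, at 8974 in D. simulans and 8172 in D. melanogaster, these genes made up nearly all of the D. simulans sum. Other genes of the list went the other way, with the larval serum protein gene Lsp2 at 11.1 in D. simulans and 494 in D. melanogaster, and to at 1340 in D. simulans and 3832 in D. melanogaster. Of the 6 compared genes of this list, 2 had D. simulans set apart as highest (5.6% of all compared genes) and 2 had D. melanogaster (3.5%). Eggshell and oocyte genes summed to 1146 in D. simulans and to at most 166 elsewhere, and the eggshell gene Cp15 gave most of that sum. D. simulans was set apart as highest in 3 of the 4 compared genes (5.6% of all compared genes). The oocyte gene grk, however, was at 13.9 in D. simulans and 72.9 in D. persimilis, and the eggshell gene Cp36 was listed at 0 in D. simulans. Haemocyte markers summed to 1143 in D. simulans and to 142 (D. persimilis) to 456 (D. yakuba) elsewhere, and of 4 compared genes the prophenoloxidase gene PPO1 had D. simulans set apart, at 508 against at most 127. Seminal protein genes of the Acp53 cluster were at 0 to 1.98 in D. simulans. Signs of other tissue were not confined to this library. Muscle markers summed to 43255 in D. persimilis, the highest, to 18484 in D. simulans and to 2162 in D. melanogaster, the lowest. The part of eye, fat body, eggshell, haemocytes, muscle or sex of the flies in the Obp99a and Obp99b levels of D. simulans was not tested.

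Obp44a set D. melanogaster apart at the bottom. Its signal was 29.3 in D. melanogaster, against 284 in D. yakuba, 309 in D. persimilis, 410.3 in D. simulans and 655 in D. pseudoobscura. The other 4 libraries lay within 2.31-fold of each other, and D. melanogaster was 9.71-fold below the lowest of them. Its difference from D. simulans, its closest relative here, was 14.0-fold. The summed signal of 7 glial markers was 2266 in D. melanogaster and between 789 and 2172 in the others, most of it from the glutamine synthetase gene Gs2. Of these 7 genes 1, the astrocyte gene alrm, had D. melanogaster set apart as lowest (5.44% of all compared genes). The part of glia in the Obp44a levels was not tested.

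Obp8a was highest in D. melanogaster. It was at 292 in D. melanogaster, 3.49-fold above D. simulans (83.8), with 66.7 in D. pseudoobscura, 44.3 in D. persimilis and 9.91 in D. yakuba. The 3 middle libraries lay within 1.89-fold of each other, and D. yakuba was 4.47-fold below the lowest of them. Levels thus differed 29.5-fold between D. melanogaster and D. yakuba, the pair of libraries with the fewest compared genes at least 4-fold apart (11.6%, and 3 of the 6 genes). The 4 seminal protein genes in the table, of 13 listed, summed to 0.144 in D. melanogaster, where 3 of them were at 0, and to 1071 in D. persimilis, 1.98 in D. simulans, 1.69 in D. yakuba and 0 in D. pseudoobscura. The part of male tissue in the Obp8a levels was not tested.

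Taken by library, 3 of the 6 genes had a highest library set apart by at least 2-fold, against 17.4% of the compared genes. They were Obp99a and Obp99b in D. simulans and Obp8a in D. melanogaster. D. simulans was the set-apart library in this direction for 5.6% of all compared genes, and D. melanogaster for 3.5%. A lowest library was set apart for 4 of the 6 genes, against 33.6% of the compared genes. They were Obp8a in D. yakuba (3.91% of compared genes), Obp44a in D. melanogaster (5.44%), Obp49a in D. simulans (9.75%) and Obp99a in D. pseudoobscura (6.41%). Each of these calls rests on the library it names, and Obp8a without D. melanogaster had its highest library at 0.32 on the log2 scale above the next. Differences of a library from the mean of the others also went with exonic length across 5033 genes, which are not independent replicates, with a Spearman correlation of -0.34 in D. persimilis, 0.33 in D. melanogaster, -0.19 in D. simulans and 0.37 in D. yakuba, but -0.03 in D. pseudoobscura. Among the 1300 compared genes of up to 1200 exonic bases, D. simulans was set apart as highest in 9.54% and D. melanogaster in 2.85%. The lowest library was D. yakuba in 8.62% of these short genes, D. melanogaster in 7.92%, D. simulans in 5% and D. pseudoobscura in 5.69%.

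Between sister species, fewer of the 6 genes were 4-fold apart in the obscura group than between D. melanogaster and D. simulans. All compared genes showed the same order. D. pseudoobscura and D. persimilis were at least 4-fold apart in 1 of the 6 genes, about the share among all compared genes (15.2%). That gene was Obp99a, which is listed at 0 in D. pseudoobscura. Obp19c is listed at 0 in both libraries and gives no fold. Among the others above 0 in both, the folds were 1.17 for Obp49a, 1.37 for Obp99b, 1.51 for Obp8a and 2.12 for Obp44a. D. melanogaster and D. simulans were that far apart in 3 genes, Obp44a, Obp99a and Obp99b (22.4% of all compared genes). Their folds in the remaining genes were 1.10 for Obp19c, 3.23 for Obp49a and 3.49 for Obp8a. On the log2(signal + 1) scale, D. melanogaster differed at least 4-fold in all 6 genes from D. pseudoobscura (22.2%) and also from the D. persimilis library (27.5%). It was lower in Obp44a and Obp49a and higher in the other genes. The comparisons of Obp19c, and of Obp99a with D. pseudoobscura, are against a 0 and depend on the pseudocount. At a pseudocount of 5 the gap of Obp19c between the species groups was -1.22 on the log2 scale, under 4-fold.

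Within the odorant-binding protein family the 6 genes were mostly of middle rank. Of 52 listed family genes 35 had a row in the table, 5 of them at 0 in all libraries. The highest mean signals belonged to Obp19d (27278), Obp28a (9567) and Obp83a (8843), and those of the 6 genes were 1632 for Obp99b, 767 for Obp99a, 338 for Obp44a, 185 for Obp49a, 99.4 for Obp8a and 5.81 for Obp19c, which placed them between rank 9 and rank 24 by mean. The means of Obp99b and Obp99a rest on D. simulans, and without it they were 150 for Obp99b and 46.6 for Obp99a. The order among them changed with the species. Obp44a and Obp49a led in D. pseudoobscura and D. persimilis, Obp99b and Obp8a in D. melanogaster, Obp99b and Obp99a in D. simulans, and Obp44a and Obp99a in D. yakuba. Obp99a ranked 20 in the family in D. persimilis, 14 in D. melanogaster and 13 in D. yakuba. In D. pseudoobscura, where it was listed at 0, it shared the last rank, 21, with all other rows at 0. Obp99b ranked 9 in D. melanogaster and 13 or 14 in D. pseudoobscura, D. persimilis and D. yakuba. In D. simulans Obp99b ranked 5 and Obp99a ranked 6, and the 6 genes together held 20.2% of the summed family signal. That share was 1.03% for D. pseudoobscura, 1.25% for D. persimilis, 1.14% for D. yakuba and 1.75% for D. melanogaster.

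**Figure D3:**
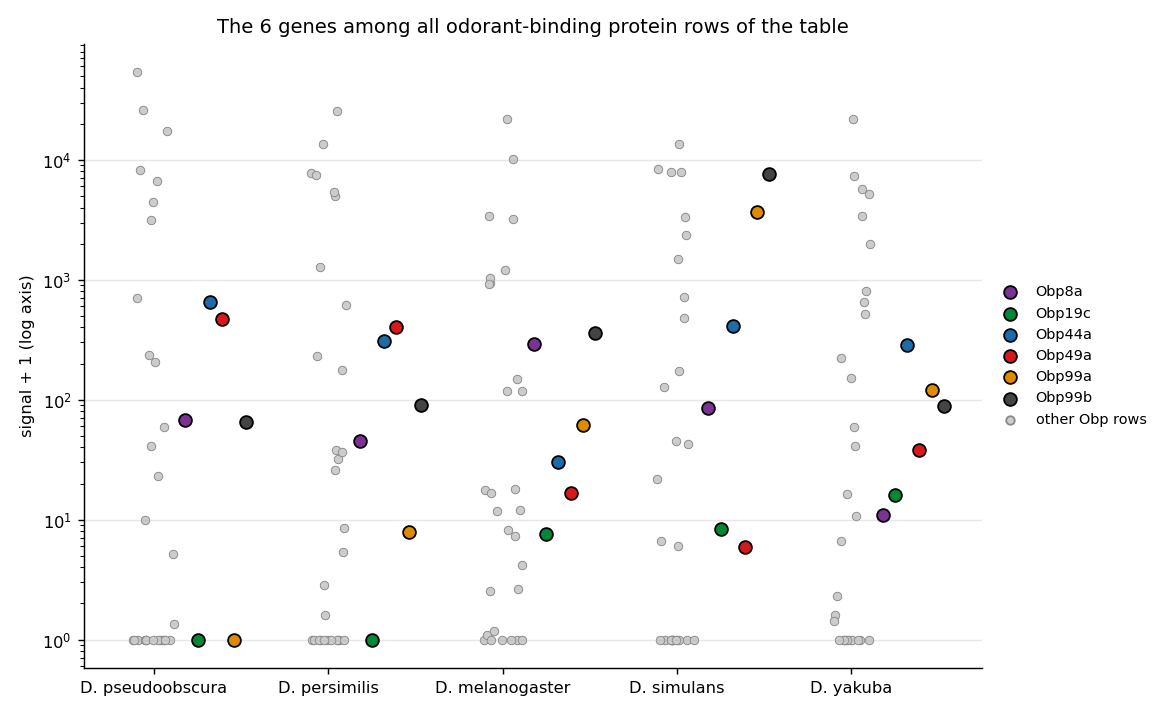
Signal, with 1 added, of all 35 odorant-binding protein rows in each library on a log axis. Grey points are the other 29 rows, spread sideways for sight, and coloured points are the 6 genes. Obp99a and Obp99b are among the high family members in D. simulans (3651 and 7558), and Obp44a and Obp49a lead the 6 in the obscura group.

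Of 18 other compared rows of the family, the obscura group was higher in 3 (4.68% of all compared genes) and lower in 4 (5.86%). A highest library was set apart in 8 of the 18 (17.4% of all compared genes). A lowest one was set apart in 6, which is about the share among all compared genes (33.6%). The median number of pairs of libraries at least 4-fold apart was 5 for these rows and 2 for all compared genes. D. simulans was the highest set-apart library in 2 of these 18 rows (5.6% of all compared genes), and D. melanogaster the lowest in 4 (5.44%). Wide differences were thus found in other rows of the family too. Next to Obp19c, Obp19d was the highest row of the family in every library. Obp19a and Obp19b, which complete the X cluster, had 6262 and 96 reads in D. melanogaster and no row in the table.

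The 3 genes whose profile over the 5 libraries was closest to each Obp gene were taken from 4507 compared genes above 0 in all libraries, by the distance between mean-centred log2(signal + 1) profiles. With 5 points a profile that share the same libraries and scaling, likeness is a description only. The choice was also unsteady, since 3 of the 18 neighbours were also among the nearest by Pearson correlation and 3 to 6 of them when 1 library was left out. Such a distance also tends to be larger for a gene of wide range, and the range was smallest for Obp19c (4.01) and widest for Obp99a (11.83). Obp19c had the smallest distances, to CG7154, now Brd7-9 (0.55), the Polycomb-recruiting factor phol (0.63) and GRHR, now AkhR, the adipokinetic hormone receptor (0.66). In the obscura group CG7154 and phol had low signals, between 0.17 and 0.77. Obp44a followed with CG12744 (0.71), CG33695 (0.82) and the respiratory complex I subunit CG15434, now ND-B8 (0.89), each low in D. melanogaster (CG15434 at 64.2, against at least 620.4 in the others). Obp49a was closest to CG13437 (1.10), CG12253 (1.42) and the odorant receptor Or43b (1.43), which was at 172 in D. pseudoobscura and 368 in D. persimilis, against 10.5 in D. melanogaster, 5.63 in D. simulans and 48.0 in D. yakuba. Obp8a was closest to the cuticular protein gene Cpr51A (1.32), CG5835 (1.34) and CG5945, now Jhbp13 (1.39).

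Neighbours of Obp99a and Obp99b lay at larger distances than those of the other Obp genes. Genes at 0 in any library were not candidates. No gene that shares the 0 of Obp99a in D. pseudoobscura could therefore be named, and the distances of Obp99a include that 0. The nearest candidate to Obp99a was ninaE, the opsin of the outer photoreceptors, at a distance of 3.24. It had 4604 in D. simulans, and 13.5 (D. pseudoobscura) to 159 (D. yakuba) in the other 4 libraries. The antibacterial peptide gene Listericin (3.41) and the mitochondrial ribosomal protein gene mRpS22 (3.94) came next. For Obp99b they were CG17224 (1.98), CG4250 (2.32) and ko (2.39), all highest in D. simulans. Neither gene was among the 3 nearest of the other, and Obp99a could not be, since it was listed at 0 in 1 library.

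**Figure D4:**
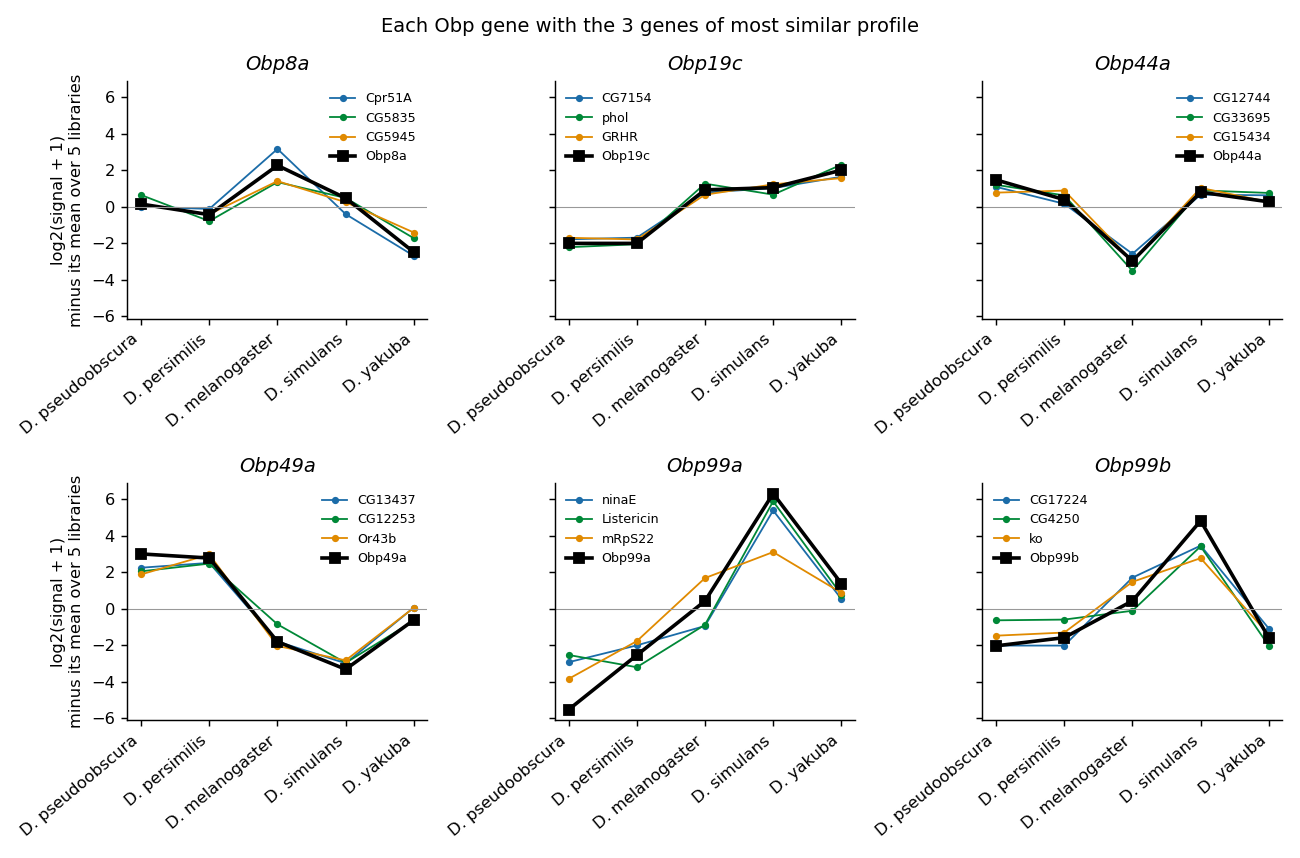
Profile of each Obp gene (black squares) and of the 3 genes nearest to it (coloured) over the 5 libraries, as log2(signal + 1) minus the gene's mean over libraries. Profiles of Obp19c and Obp44a run close to their neighbours, while Obp99a and Obp99b exceed theirs in D. simulans. Obp99a also falls below its neighbours in D. pseudoobscura, where it is listed at 0 and they are not.

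**Figure D5:**
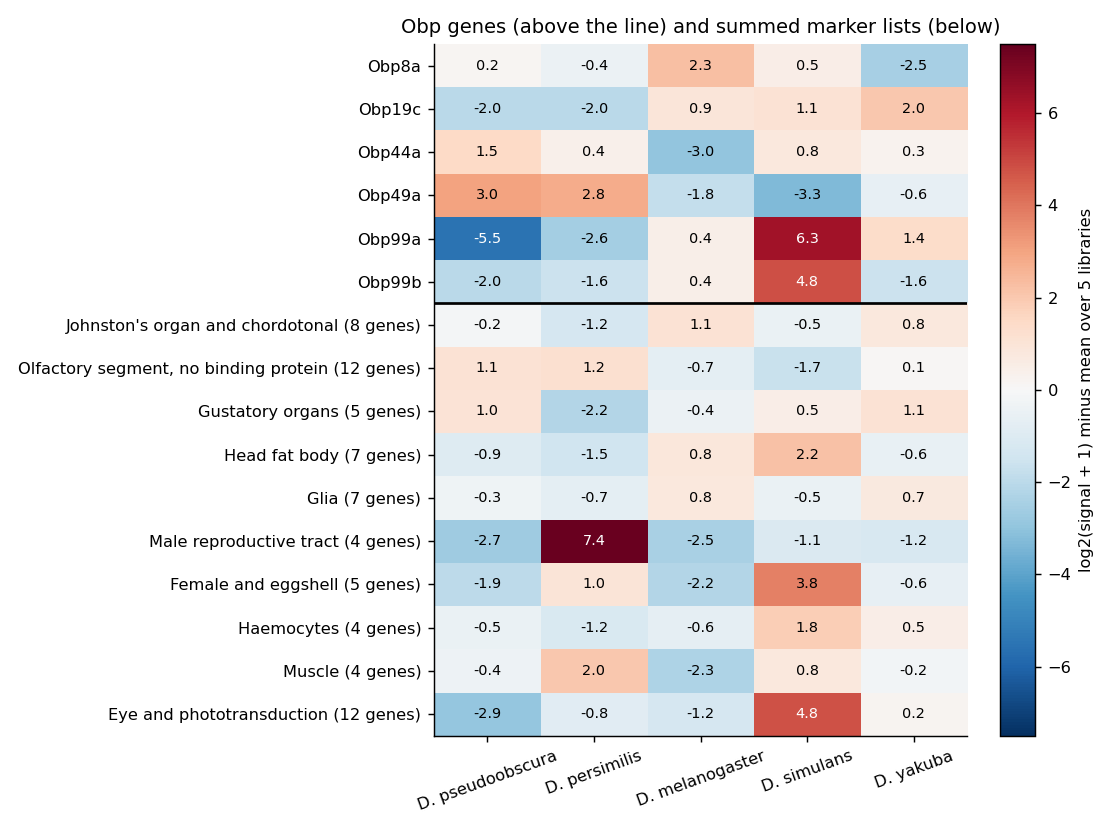
Log2(signal + 1) of the 6 Obp genes and of the summed signal of each marker list, minus its mean over the 5 libraries, with the value printed in each cell. Red is above the mean and blue below. The D. simulans column is high for Obp99a and Obp99b and also for the eye, eggshell, head fat body and haemocyte lists. The D. persimilis column is high for the male reproductive and muscle lists.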

How the data were processed

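The deposited count values are whole reads per gene of each species' own annotation, release 2.30 for D. pseudoobscura, 1.3 for D. persimilis, 5.46 for D. melanogaster, 1.4 for D. simulans and 1.3 for D. yakuba per the labels, without normalization. The submitters' processing notes list TopHat2 2.0.3 and HTSeq and assign them no role. Strand handling was not given. Libraries held 12908479, 9236301, 22391819, 7580214 and 13916387 reads in the same order.

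The deposited signal of the cross-species table was normalized by the authors in a way the labels do not describe. Its 75th percentile was 34.3 in every library. For 76.8% of 5842 genes with over 20 D. melanogaster reads, signal times exonic length over reads lay within 5% of its median. Values were multiplied by 1 common factor, 1.09 (mean library total 1000000), and taken as log2(signal + 1). Rows with a mean of at least 5 were compared.

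No test was run, with 1 library per species. A gene was called higher or lower in the obscura group when the 2 species groups were separated by at least 2-fold, and a library was set apart when it differed from the next one by at least 2-fold. Named genes were the 6 genes, the 3 nearest profiles of each, the 3 highest family rows, cluster neighbours and leading markers; other genes were named after their values were seen. The 6 genes and the lists were chosen with earlier results of these data known. Symbols, coordinates and exonic lengths came from BDGP6, a later assembly than the authors' release. Rules were tested on simulated data. Python 3.11.15, pandas 2.3.3, scipy 1.17.1 and, for TMM factors, edgeR 4.0.16 were used. Alternatives covered scaling, pseudocount, filter, gap and leaving out each library.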

Additional observations from a re-analysis of the deposited data

Results flagged for a closer look

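Of the 17 listed odorant-binding protein genes with no row in the cross-species table, 7 had more D. melanogaster reads than the 3 that a count of 0 allows. They were flagged because this signal lies outside the data compared between species. Obp19a, in the X cluster that holds Obp19c, had 6262 reads and Obp76a, the pheromone-sensing binding protein lush, had 3208. Obp18a had 1067 reads, Obp57a 677, Obp57b 112, Obp19b 96 and Obp57e 27. Whether these genes differ between species was not analysed here.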

How the results depend on the processing

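The 3 calls between the species groups (Obp49a higher, Obp19c and Obp99a lower) were made under every scaling and pseudocount tried, with gaps of at least 1.5-fold and 4-fold, and without each library, except that Obp19c fell under the filter at a mean of at least 20 and without D. yakuba. Without D. yakuba, Obp99b was then called lower (-2.01), and without an obscura group library the group is a single library. Leaving out 1 library at a time kept such calls at 3, and gave 2 to 4 genes with a highest library set apart and 3 to 5 with a lowest. A gap of at least 1.5-fold gave 5 genes with a highest library set apart, adding Obp19c and Obp44a. Equal library totals set Obp44a apart as highest in D. pseudoobscura (1.03) and shifted the median log2 difference of all compared genes by -0.27, TMM by 0.11 and median of ratios by 0.13. Obp19c in D. yakuba was set apart at a pseudocount of 0.1 (1.04). The D. simulans peaks of Obp99a and Obp99b remained at 4-fold and under every scaling, with 4.30 and 3.48 at equal totals. Nearest genes were unstable. Of the 18 named, 3 were also nearest by Pearson correlation and 3 to 6 when 1 library was left out. The cause was not tested. Of 228 recomputed values of single genes, 35 moved by more than 1.5-fold or crossed the 2-fold limit. Most of the 228 are gaps between ordered libraries, which cannot change sign. Ranks within a library do not change with scaling. No paired analysis was possible because each species has 1 library. The 39 comparisons at least 4-fold apart became 31 at a pseudocount of 5 and 40 under equal totals, and 45 at 2-fold. Restricting to genes of up to 1200 exonic bases, chosen after seeing the data, leaves in all 6 genes and so bears only on the shares of compared genes, which were 9.15% against 4.68% for obscura higher, 3.92% against 5.86% for obscura lower, 22.1% against 17.4% for a highest library and 29.9% against 33.6% for a lowest library set apart.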
